A study of Homo sapiens with 12 samples.

Results

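The SR protein and hnRNP genes are the 2 large families of splicing factor genes named SRSF and HNRNP. The members were taken from the deposited gene table by symbol: protein-coding genes on chromosomes 1 to 22 and X whose symbol starts with SRSF and a digit or with HNRNP, without HNRNPD. This gave 37 of 60675 genes, 12 of the SRSF family and 25 of the HNRNP family. Of these, 32 members (11 SRSF and 21 HNRNP) had counts high enough to be tested, among 15112 tested genes in all. The other members were nearly silent over all 12 libraries together, with 54 counts for HNRNPCL1, 34 for HNRNPCL2, 2 for HNRNPCL3, 1 for HNRNPCL4 and 2 for SRSF12. RNA was measured by polyA+ RNA-seq in the human cell line U-2932, derived from a diffuse large B cell lymphoma, in 4 groups of 3 libraries that the submitters describe as independent biological replicates. The groups were cells with Roquin2 Y691F given F(ab')2-IgM, cells with WT Roquin2 given F(ab')2-IgM, untreated cells with Roquin2 Y691F, and untreated cells with WT Roquin2. F(ab')2-IgM, here called IgM, engages the B cell receptor and was given at 10 µg/ml for 12 h. Both cell types carried an introduced Roquin2, so that no group lacked one. The sources used here do not say how many lines were made with each form, nor which promoter drove it.

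SR proteins bind exonic enhancers through RNA recognition motifs and, through their arginine- and serine-rich domain, help the spliceosome to choose splice sites. They are phosphorylated by the SRPK, CLK and DYRK kinases and several of them also take part in export and translation of mRNA. The hnRNP proteins coat nascent transcripts, often repress exons, and act in export, stability and localization of mRNA. Many genes of both families limit their own mRNA by splicing in an exon that directs the transcript to nonsense-mediated decay. In lymphocytes, SRSF and hnRNP proteins act on the splicing of PTPRC (CD45), and HNRNPLL is known as a regulator of that event in activated T cells and in plasma cells. The counts were per gene, so that productive and decay-targeted transcripts of a member were not told apart.

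The promoters of 4 members are shown because these genes had the largest rises and the 2 largest of the well-measured falls with IgM. HNRNPH1 and SRSF3 were the only members at least 1.5-fold higher with IgM in both cell types, HNRNPH2 was the only one at least 1.5-fold lower in both, and HNRNPA2B1 had the next largest fall in WT. Each sequence is the 250 bases before the gene's start in RefSeq (GRCh38.p14), 5′ to 3′ on the strand of the gene. Capitals mark matches to the motifs searched.
HNRNPH2 (chrX:101407972-101408221, plus strand): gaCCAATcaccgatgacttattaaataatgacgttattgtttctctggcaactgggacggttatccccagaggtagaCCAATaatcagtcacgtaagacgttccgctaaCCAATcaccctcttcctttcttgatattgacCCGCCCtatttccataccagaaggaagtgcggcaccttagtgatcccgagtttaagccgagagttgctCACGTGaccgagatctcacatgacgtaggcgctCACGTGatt
HNRNPA2B1 (chr7:26200747-26200996, minus strand): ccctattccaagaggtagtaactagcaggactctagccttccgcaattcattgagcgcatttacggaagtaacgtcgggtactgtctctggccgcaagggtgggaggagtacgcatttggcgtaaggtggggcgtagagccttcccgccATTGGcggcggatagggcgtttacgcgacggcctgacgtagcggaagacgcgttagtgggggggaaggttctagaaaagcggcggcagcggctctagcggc
HNRNPH1 (chr5:179634785-179635034, minus strand): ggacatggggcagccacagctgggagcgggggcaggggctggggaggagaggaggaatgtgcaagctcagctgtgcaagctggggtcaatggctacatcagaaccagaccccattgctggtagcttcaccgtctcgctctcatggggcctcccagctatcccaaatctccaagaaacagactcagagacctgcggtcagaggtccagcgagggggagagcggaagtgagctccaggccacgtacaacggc
SRSF3 (chr6:36594112-36594361, plus strand): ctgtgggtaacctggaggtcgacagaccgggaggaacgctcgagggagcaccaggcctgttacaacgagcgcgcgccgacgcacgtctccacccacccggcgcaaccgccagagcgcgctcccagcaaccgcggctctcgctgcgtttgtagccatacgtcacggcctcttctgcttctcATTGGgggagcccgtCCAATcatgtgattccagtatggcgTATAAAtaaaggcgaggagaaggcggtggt

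The motifs searched, on both strands, were CCAAT, bound by the factor NF-Y, then CCGGAAG, bound by ETS factors, the palindrome CACGTG, known as an E-box, and GGGCGG, bound by the factor Sp1. The others were the core promoter element TATAAA and the palindrome TGACGTCA of cAMP response elements. Positions are counted back from the RefSeq start, with -1 for the base before it. The HNRNPH2 promoter held CCAAT at -248, -173 and -141, the reverse complement of GGGCGG at -110, and CACGTG at -42 and -9. The SRSF3 promoter held the reverse complement of CCAAT at -70, CCAAT at -55 and TATAAA at -30. The HNRNPA2B1 promoter held 1 match, the reverse complement of CCAAT at -101, and the HNRNPH1 promoter held none. The HNRNPH2 window was 47.6% G and C, against 59.2% for HNRNPA2B1, 61.6% for HNRNPH1 and 62.4% for SRSF3. Over the 27305 promoters of the RefSeq table cut to the same length, CCAAT occurred in 33%, GGGCGG in 42.3%, TATAAA in 11.1%, CCGGAAG in 8.82%, CACGTG in 6.49% and TGACGTCA in 1.77%. Of the 30 tested members with a promoter in that table, 16 held CCAAT, 19 GGGCGG, 4 TATAAA, 4 CCGGAAG, 5 CACGTG and 0 TGACGTCA. HNRNPUL2 and the read-through gene HNRNPUL2-BSCL2, whose annotated starts lie close together, both count for CCAAT and for GGGCGG. A match is a match of letters, and gene counts do not bear on the use of any of these sites.

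Library totals ran from 16465393 to 21478790 counts, and mitochondrial genes took 7.63% to 8.82% of them. The variance between replicates of a group was 1.43 to 2.41 times the counting variance (chi-square over degrees of freedom). Levels per library are CPM, counts scaled to a common library total with TMM factors, and RPKM are the authors' values per length. RC3H2, the gene of Roquin2, averaged 206 ± 1.79 CPM in Y691F cells with IgM, against 121 ± 1.80 CPM in WT cells with IgM. It averaged 209 ± 0.880 CPM in untreated Y691F cells, against 111 ± 1.08 CPM in untreated WT cells (SD, n = 3 each). RC3H2 was thus higher in Y691F by 0.77 with IgM and by 0.92 untreated on the log2 scale (adjusted p = 7.31e-36 and 2.50e-41, edgeR). A count per gene does not part the introduced from the endogenous transcript, so every comparison of Y691F with WT is also one of unequal RC3H2 mRNA. All 8 B cell markers examined were high enough to be tested, and their summed level was 2333 to 2386 CPM in Y691F with IgM, 2465 to 2505 CPM in WT with IgM, 3262 to 3299.8 CPM in untreated Y691F and 3714 to 3774 CPM in untreated WT. With IgM 5 of the 8 were lower and 3 higher in each cell type (2 higher in Y691F with scaling by library totals), among them CD79B at -2.62 in Y691F and -2.61 in WT and PAX5 at -1.32 in Y691F and -1.72 in WT. In Y691F over WT 4 were lower and 2 higher with IgM, and 5 were lower and 3 higher untreated, with CD22 at -1.10 with IgM and -0.80 untreated. These markers moved in the same comparisons as the members, and their part in the members' changes was not tested. The 4 T cell markers summed to 1 to 8 counts per library, with CD3D and CD2 at 0, the 4 myeloid markers to 14 to 29 counts, and the 5 fibroblast and epithelial markers to 346 to 513 counts.

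Levels between members are compared here only per length, in RPKM, over the 3 libraries of untreated WT cells, which gave the order of the members. HNRNPAB, an RNA-binding protein of the A/B family, stood highest with 175 ± 4.84 RPKM, followed by SRSF2 with 150.4 ± 2.64 and HNRNPK with 144 ± 3.94 RPKM (SD, n = 3). The libraries of SRSF2 and HNRNPK overlapped. HNRNPA1, HNRNPF and HNRNPA2B1 came next with 119, 117 and 111 RPKM, and neighbours among these overlapped as well. SRSF7, SRSF3 and SRSF6 lay within their spread of each other at 36.9, 36.8 and 36.5 RPKM. At the low end stood HNRNPLL with 5.77 RPKM, HNRNPA1L2 with 4.57 RPKM and the read-through gene HNRNPUL2-BSCL2 with 0.245 RPKM. The 4 members of the F/H family spanned 117 RPKM for HNRNPF, 40.1 for HNRNPH1, 15.8 for HNRNPH2 and 15.1 for HNRNPH3. RPKM carry no TMM scaling, so they serve here for the order of genes and not for changes. The order also rests on the gene lengths that the authors used, which were not examined. Without the division by length, the gap between HNRNPH1 and HNRNPH2 was wider, at 446 and 41.2 CPM in untreated WT cells.

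**Figure D1:**
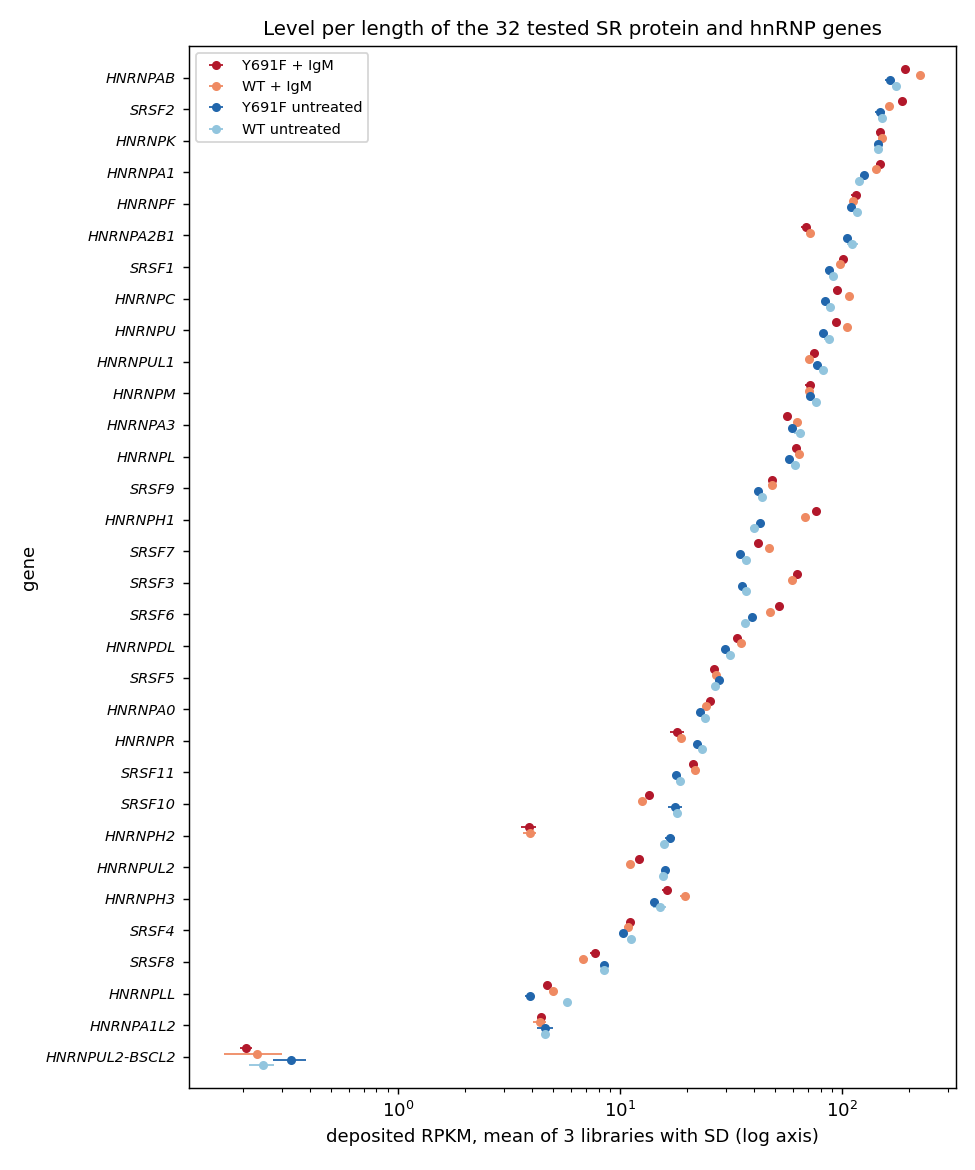
Deposited RPKM of the 32 tested members (log axis, mean of 3 libraries) in each of the 4 groups, ordered by the level in untreated WT cells. HNRNPAB is at the high end with 175 RPKM and HNRNPUL2-BSCL2 at the low end with 0.245 RPKM.

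With TMM scaling, most SR protein and hnRNP genes were higher with IgM, by less than 1.5-fold, in both cell types. In Y691F cells 23 of the 32 tested members were higher with IgM, 6 were lower and 3 were not called (edgeR, adjusted p under 0.05). In WT cells 21 were higher, 7 lower and 4 not called. Of all tested genes, 75.8% were called in Y691F cells (37.1% higher, 38.7% lower) and 76.9% in WT cells (38.4% higher, 38.5% lower), so that a call by itself was common. The members' median log2 fold change was 0.27 in Y691F cells and 0.18 in WT cells, against -0.011 and 0.0016 over all tested genes. Few of these changes were large: 2 members were higher and 1 lower by at least 1.5-fold in each cell type, whereas 41% of all tested genes were called at 1.5-fold or more in Y691F cells (17.2% higher, 23.8% lower) and 43.1% in WT cells (18.8% higher, 24.2% lower). By family, 8 of 11 SR genes were higher and 1 lower in Y691F cells, and 9 were higher and 2 lower in WT cells. Of the 21 hnRNP genes, 15 were higher and 5 lower in Y691F cells, and 12 were higher and 5 lower in WT cells. The same direction in both cell types was called for 25 of 32 members (78.1%; 20 higher and 5 lower), against 65.6% of all tested genes, and HNRNPUL1 was called in opposite directions.

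The split between higher and lower depended on the scaling. With library totals alone in place of TMM factors, the median of all genes moved by -0.17 in Y691F cells and -0.13 in WT cells. Of the members, 18 were then higher and 10 lower in Y691F cells, and 16 were higher and 10 lower in WT cells. Of all 15112 tested genes, 4245 were higher and 7265 lower in Y691F cells, and 4642 were higher and 6776 lower in WT cells. For the 11 SR genes the counts were 8 higher and 3 lower in Y691F cells, and 7 and 2 in WT cells. For the 21 hnRNP genes they were 10 higher and 7 lower in Y691F cells, and 9 and 8 in WT cells (median -0.037 in WT). Among members called with either scaling, those that changed sign were HNRNPA3 and HNRNPM in both cell types, HNRNPK, HNRNPUL1 and SRSF5 in Y691F cells, and HNRNPF and SRSF4 in WT cells. As a share of all counts, which is the scaling by library totals, SR genes took 0.304, 0.308 and 0.305% in Y691F cells with IgM, against 0.260, 0.251 and 0.263% in untreated Y691F cells. In WT cells the shares were 0.293, 0.295 and 0.300% with IgM, against 0.260, 0.259 and 0.261% untreated. The SR shares did not overlap in either cell type, and the exact 2-sided permutation p was 0.1 in both, the smallest that 3 against 3 libraries can give. The hnRNP genes took 0.882, 0.905 and 0.921% in Y691F cells with IgM, against 0.862, 0.874 and 0.887% in untreated Y691F cells, which overlapped (exact permutation p = 0.2). In WT cells they took 0.936, 0.947 and 0.940% with IgM, against 0.874, 0.915 and 0.899% untreated, without overlap (exact permutation p = 0.1). In bulk samples, fewer cells of a type and less RNA per cell cannot be told apart.

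**Figure D2:**
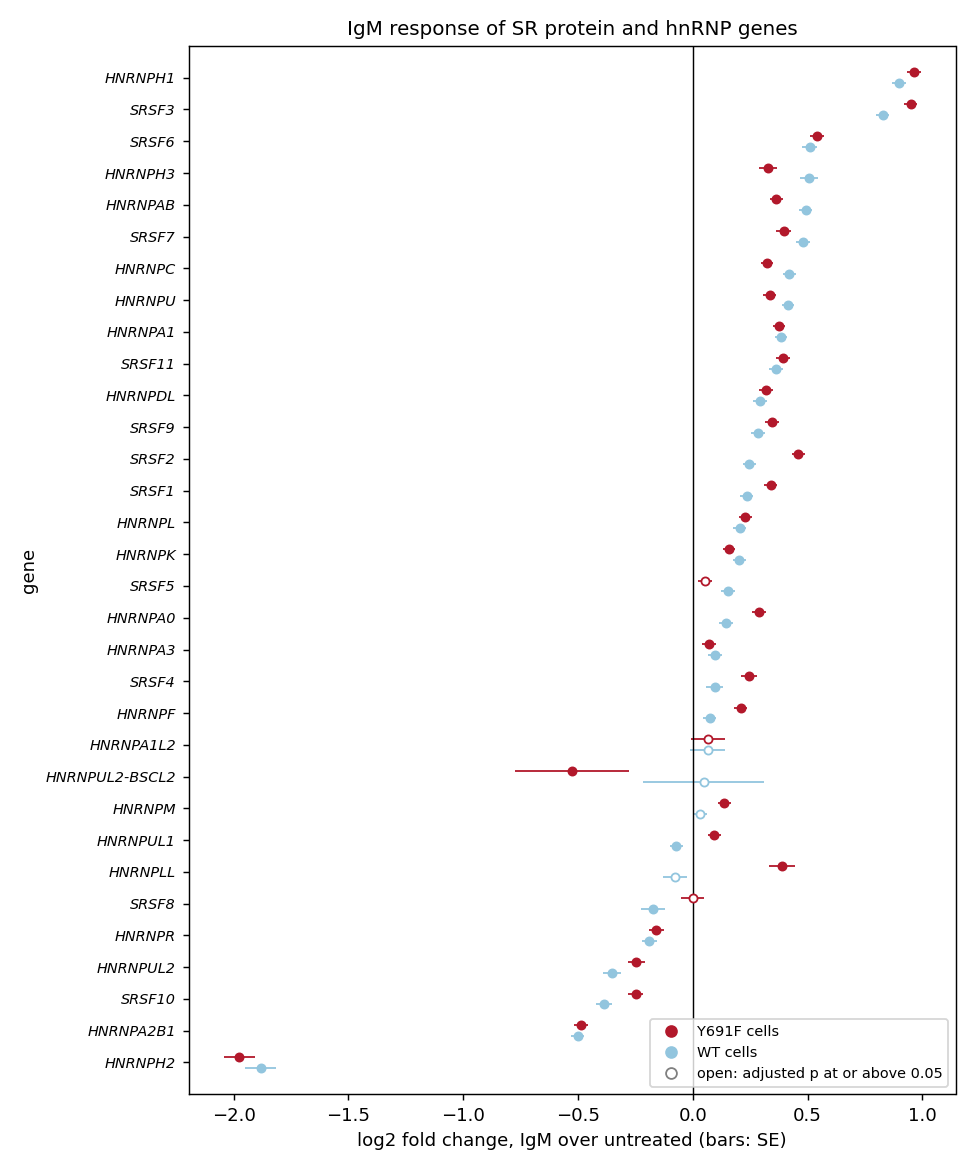
Log2 fold change of IgM over untreated (x axis; bars are SE) for each tested member (y axis) in Y691F and WT cells, n = 3 libraries per group, with filled points for adjusted p under 0.05. HNRNPH2 stands apart at -1.98 in Y691F and -1.88 in WT cells, and HNRNPH1 and SRSF3 have the largest rises; with library totals alone 9 of the smaller changes that were called with either scaling turn sign.

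**Figure D3:**
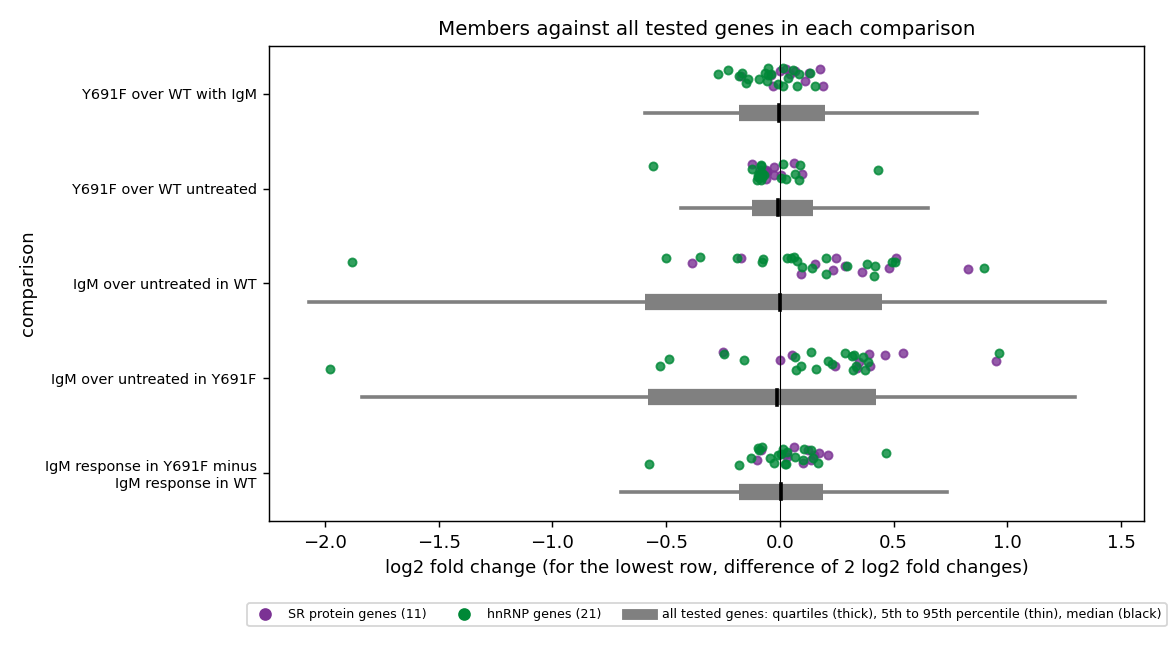
Distribution of log2 fold changes in each of the 5 comparisons for all 15112 tested genes and for the 32 tested members. In the IgM comparisons the members' medians (0.27 in Y691F and 0.18 in WT cells) lie above those of all genes, and most members lie within 1.5-fold.

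The F/H family binds G-rich runs in RNA, and its members moved in both directions with IgM. HNRNPH2 (ENSG00000126945, chrX:101408295-101414133, plus strand) fell the most of all members. HNRNPH2 had 10.2, 11.3 and 11.8 CPM in Y691F cells with IgM, against 41.2, 43.1 and 46.7 CPM in untreated Y691F cells, and 11.9, 10.3 and 11.5 CPM in WT cells with IgM, against 40.3, 41.7 and 41.4 CPM in untreated WT cells. Every library with IgM was below every untreated library, and the fall was 3.93-fold in Y691F cells and 3.69-fold in WT cells. On the log2 scale it was -1.98 (SE 0.068, adjusted p = 1.74e-43) in Y691F and -1.88 (SE 0.069, adjusted p = 1.91e-41) in WT. HNRNPH1 (ENSG00000169045, chr5:179614178-179634784, minus strand), its close homologue, rose the most. HNRNPH1 had 904, 935 and 939.9 CPM in Y691F cells with IgM, against 470.1, 458 and 496 CPM in untreated Y691F cells, and 840.4, 828 and 828 CPM in WT cells with IgM, against 428, 462 and 449 CPM in untreated WT cells. Its log2 fold change was 0.96 (SE 0.029, adjusted p = 9.77e-48) in Y691F and 0.90 (SE 0.029, adjusted p = 2.21e-45) in WT, or 1.95-fold and 1.86-fold.

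Both changes enter the ratio of this pair within a library, in which scaling cancels, and it restates them, since either alone would move it. The count of HNRNPH1 for each count of HNRNPH2 was 88.3, 82.6 and 79.7 in Y691F cells with IgM, against 11.4, 10.6 and 10.6 in untreated Y691F cells. In WT cells it was 70.9, 80.7 and 72.1 with IgM, against 10.6, 11.1 and 10.8 untreated. The ratios with IgM were far above the untreated ones in both cell types. The annotated transcripts of the pair share 1 of the 2174 stretches of 50 bases in HNRNPH2, so that few reads could be counted for the wrong gene of the pair. HNRNPH2 overlaps the row of the read-through gene RPL36A-HNRNPH2 and shares 15.0% of its 50-base stretches with other genes. That row held 0 counts. The read counter is not named in the sources used here, so any HNRNPH2 reads left out because of the overlap cannot be seen. Among the rest of the family, HNRNPH3 had 108, 111 and 117 CPM in Y691F cells with IgM, against 86.5, 90.4 and 91.3 CPM in untreated Y691F cells, a log2 fold change of 0.33 (SE 0.039, adjusted p = 9.29e-12). In WT cells it had 131, 141 and 134 CPM with IgM, against 88.7, 98.7 and 98.6 CPM untreated, a log2 fold change of 0.51 (SE 0.038, adjusted p = 1.63e-20). HNRNPF rose by 0.21 in Y691F cells (adjusted p = 3.54e-10) and by 0.074 in WT cells (adjusted p = 0.0151). With library totals alone its call ended in Y691F cells, at 0.040 (adjusted p = 0.175), and turned to -0.060 in WT cells (adjusted p = 0.0415).

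**Figure D4:**
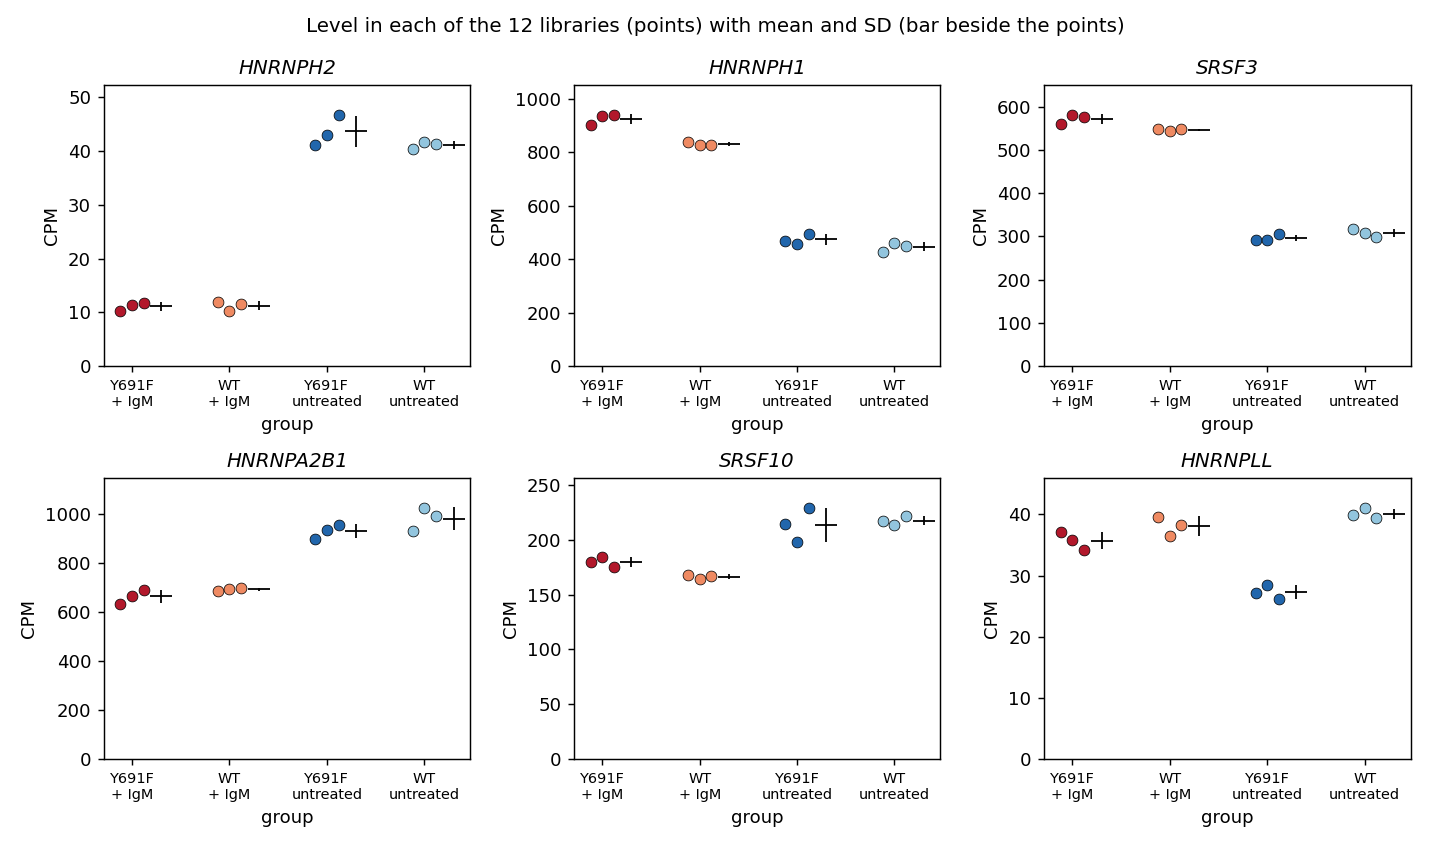
CPM in each of the 3 libraries of each group (points; mean and SD beside them) for HNRNPH2, HNRNPH1, SRSF3, HNRNPA2B1, SRSF10 and HNRNPLL, with axes from 0. IgM and untreated libraries separate within each cell type for the first 5 genes, and for HNRNPLL the untreated Y691F libraries (27.2, 28.5 and 26.2 CPM) lie below all others.

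Of the SR genes, SRSF3 (ENSG00000112081, chr6:36594353-36605600, plus strand), the smallest classical SR protein, which also serves mRNA export, rose the most. SRSF3 had 559, 580.2 and 576 CPM in Y691F cells with IgM, against 292, 291 and 305 CPM in untreated Y691F cells, and 548, 544 and 547 CPM in WT cells with IgM, against 317, 308 and 297 CPM in untreated WT cells. All IgM libraries were above all untreated ones, with log2 fold changes of 0.95 (SE 0.029, adjusted p = 2.05e-47) in Y691F and 0.83 (SE 0.029, adjusted p = 4.14e-43) in WT. SRSF6, an SR protein with a pair of RNA-binding domains, had 316, 303 and 299.7 CPM in Y691F cells with IgM, against 209, 207 and 216 CPM in untreated Y691F cells. In WT cells SRSF6 had 274, 280.4 and 286 CPM with IgM, against 200.1, 198 and 192 CPM untreated. Its rise was 0.54 (SE 0.030, adjusted p = 6.15e-29) in Y691F and 0.51 (SE 0.031, adjusted p = 6.38e-27) in WT on the log2 scale. SRSF7 had 213, 217 and 220.0 CPM in Y691F cells with IgM, against 164, 161 and 169 CPM in untreated Y691F cells, and 243, 238 and 252 CPM in WT cells with IgM, against 168, 179 and 178 CPM in untreated WT cells. SRSF7, a zinc-knuckle SR protein related to SRSF3, thus rose without overlap by 0.40 and 0.48 (adjusted p = 1.13e-19 in Y691F and 1.55e-24 in WT). SRSF2 had 731, 718 and 713 CPM in Y691F cells with IgM, against 537, 532 and 502 CPM in untreated Y691F cells, and 621, 625 and 651 CPM in WT cells with IgM, against 549, 526 and 523 CPM in untreated WT cells. SRSF2, the enhancer-binding protein also known as SC35, rose without overlap by 0.46 in Y691F (adjusted p = 1.71e-26) and by 0.25 in WT (adjusted p = 9.18e-13).

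The founding member SRSF1 rose by 0.34 in Y691F and 0.24 in WT (adjusted p = 1.21e-18 and 9.31e-12). SRSF9 rose by 0.35 and 0.28, and SRSF11 by 0.39 and 0.36, in Y691F and in WT. SRSF4 rose by 0.24 in Y691F (adjusted p = 2.94e-09) and 0.10 in WT (adjusted p = 0.0128), and the WT value became -0.039 with library totals alone (adjusted p = 0.308) and lost its call without replicate 2 of WT with IgM. SRSF5 was at 0.053 (SE 0.031, adjusted p = 0.121) in Y691F and 0.15 (SE 0.032, adjusted p = 1.11e-05) in WT. With library totals alone it was lower in Y691F at -0.12 (adjusted p = 5.03e-04) and not called in WT at 0.019 (adjusted p = 0.596), so that no direction can be given for it. The difference between the SRSF5 responses was -0.10 (SE 0.044, adjusted p = 0.0889) and did not pass, whereas with library totals alone it was -0.14 and did (adjusted p = 0.0145). SRSF8, which arose from a retroposed copy of SRSF2, was lower in WT at -0.17 (adjusted p = 0.00258), whereas its value in Y691F was -0.00031 (SE 0.051, adjusted p = 0.996). SRSF8 was lower in both with library totals alone, at -0.17 in Y691F (adjusted p = 0.00212) and -0.31 in WT (adjusted p = 3.88e-07). The difference between these responses, 0.17 (SE 0.074, adjusted p = 0.0771), did not pass, with either scaling.

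SRSF10 (ENSG00000188529, chr1:23964804-23980927, minus strand), an SR protein that represses splicing when dephosphorylated, as after heat shock, fell with IgM in both cell types, against the direction of most SR genes. It had 179.5, 184 and 175 CPM in Y691F cells with IgM, against 215, 198 and 229 CPM in untreated Y691F cells. In WT cells it had 168, 164 and 167 CPM with IgM, against 217, 213 and 222 CPM untreated. The groups did not overlap in either cell type, and the log2 fold change was -0.25 (SE 0.034, adjusted p = 8.06e-10) in Y691F and -0.39 (SE 0.035, adjusted p = 8.57e-17) in WT.

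In the A/B family, whose members bind UAG-type elements and often act against SR proteins, HNRNPA2B1 and HNRNPA1 moved in opposite directions. HNRNPA2B1 (ENSG00000122566, chr7:26189927-26201529, minus strand) had 636, 668 and 689 CPM in Y691F cells with IgM, against 900.5, 937 and 954 CPM in untreated Y691F cells. In WT cells HNRNPA2B1 had 688, 694 and 699.6 CPM with IgM, against 931, 1024 and 993 CPM untreated. The log2 fold change was -0.49 (SE 0.030, adjusted p = 2.47e-25) in Y691F and -0.50 (SE 0.029, adjusted p = 3.81e-26) in WT, without overlap of the libraries. HNRNPA1 rose instead, by 0.37 (SE 0.027, adjusted p = 3.82e-22) in Y691F and 0.38 (SE 0.027, adjusted p = 1.16e-22) in WT. The count of HNRNPA1 for each count of HNRNPA2B1 was 1.48, 1.44 and 1.44 in Y691F cells with IgM, against 0.815, 0.802 and 0.788 in untreated Y691F cells. In WT cells it was 1.36, 1.36 and 1.30 with IgM, against 0.746, 0.713 and 0.715 untreated. These IgM and untreated ratios, which restate the changes of both genes, did not overlap.

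HNRNPAB had 521, 547 and 530.0 CPM in Y691F cells with IgM, against 410.4, 432 and 399 CPM in untreated Y691F cells, and 626, 623 and 622 CPM in WT cells with IgM, against 455, 428 and 448 CPM in untreated WT cells. The rise of HNRNPAB on the log2 scale was 0.36 in Y691F and 0.49 in WT (adjusted p = 4.32e-20 and 8.83e-28). HNRNPDL rose by 0.32 and 0.29, and HNRNPA0, which binds AU-rich elements, by 0.29 and 0.14. The HNRNPA0 call in WT ended with library totals alone (0.0092, adjusted p = 0.789). HNRNPA3 was at 0.070 in Y691F and 0.10 in WT (adjusted p = 0.0289 and 0.00233), but at -0.10 and -0.037 with library totals alone, so that no direction can be given for it. Its call also ended without replicate 1 of untreated Y691F or replicate 3 of Y691F with IgM, and in WT without replicate 1 of untreated WT. HNRNPA1L2, a retrogene of HNRNPA1 that shares 58.5% of its 50-base stretches with other genes, was at 0.068 (SE 0.074, adjusted p = 0.402) in Y691F and 0.064 (SE 0.075, adjusted p = 0.438) in WT and was not called.

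HNRNPC, which binds uridine tracts in introns, rose by 0.32 in Y691F and 0.42 in WT. HNRNPU, a nuclear scaffold protein, rose by 0.33 and 0.41, and HNRNPL, which binds CA repeats, by 0.23 and 0.20 (adjusted p of these 3 genes at most 3.63e-10). HNRNPK, a poly(C)-binding protein, was at 0.16 in Y691F and 0.20 in WT (adjusted p = 3.25e-07 and 3.02e-10), with -0.012 in Y691F and 0.068 in WT under library totals alone. HNRNPM, which binds GU-rich elements, was at 0.14 in Y691F (adjusted p = 1.17e-05) and 0.033 in WT (adjusted p = 0.286), and at -0.033 and -0.10 with library totals alone. HNRNPUL2, of the U family, fell by 0.25 in Y691F and 0.35 in WT on the log2 scale (adjusted p = 1.05e-08 and 1.13e-13). Its libraries held 81.8, 82.5 and 85.1 CPM in Y691F cells with IgM, against 97.9, 96.6 and 101 CPM in untreated Y691F cells, and 76.0, 75.4 and 76.3 CPM in WT cells with IgM, against 96.8, 95.5 and 98.5 CPM in untreated WT cells. HNRNPR had 193, 196 and 217 CPM in Y691F cells with IgM, against 216, 226 and 234 CPM in untreated Y691F cells, and 207, 208 and 214 CPM in WT cells with IgM, against 233, 245 and 238 CPM in untreated WT cells. HNRNPR, a homologue of SYNCRIP, was lower too, at -0.16 (SE 0.033, adjusted p = 1.84e-05) in Y691F and -0.19 (SE 0.033, adjusted p = 5.88e-07) in WT, and its libraries overlapped in Y691F and not in WT. The read-through gene HNRNPUL2-BSCL2 had 17 to 36 counts per library, and its value of -0.53 (SE 0.25, adjusted p = 0.0486) in Y691F lost its call in 13 of 19 alternatives (adjusted p up to 0.137). Among these, the call ended without any one of the 3 untreated WT libraries, without any one of the 3 libraries of Y691F with IgM, and without replicate 1 or 2 of untreated Y691F.

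With IgM, Y691F and WT cells differed in 15 of the 32 tested members, 9 higher and 6 lower in Y691F, and none by 1.5-fold. Of all tested genes 42.1% were called in this comparison (21.9% higher, 20.2% lower), and 9.96% with at least 1.5-fold (6.76% higher, 3.2% lower). The members' median log2 fold change was -0.0038, against -0.0049 for all genes. Of the SR genes 5 were higher, 1 lower and 5 not called, and of the hnRNP genes 4 were higher, 5 lower and 12 not called. With library totals alone 7 members were higher and 9 lower, against 3079 higher and 3352 lower of all 15112 tested genes.

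The largest rise in Y691F with IgM was that of SRSF2, with 731, 718 and 713 CPM in Y691F cells with IgM, against 621, 625 and 651 CPM in WT cells with IgM (log2 fold change 0.19, SE 0.028, adjusted p = 2.24e-08). SRSF8 had 40.4, 38.0 and 41.8 CPM in Y691F cells with IgM, against 35.0, 33.9 and 37.4 CPM in WT cells with IgM (log2 fold change 0.18, SE 0.054, adjusted p = 0.00485). HNRNPH1 had 904, 935 and 939.9 CPM in Y691F cells with IgM, against 840.4, 828 and 828 CPM in WT cells with IgM (log2 fold change 0.15, SE 0.028, adjusted p = 3.46e-06). In these 3 genes every Y691F library was above every WT library. HNRNPUL2 had 81.8, 82.5 and 85.1 CPM in Y691F cells with IgM, against 76.0, 75.4 and 76.3 CPM in WT cells with IgM (log2 fold change 0.13, SE 0.040, adjusted p = 0.00474). SRSF6 had 316, 303 and 299.7 CPM in Y691F cells with IgM, against 274, 280.4 and 286 CPM in WT cells with IgM (log2 fold change 0.13, SE 0.030, adjusted p = 2.24e-04). Both rises were again without overlap of the libraries. SRSF10 was higher by 0.11 (adjusted p = 0.00680), and HNRNPUL1 by 0.086 (adjusted p = 0.00969). The values of HNRNPA0 (0.074, adjusted p = 0.0446) and SRSF3 (0.066, adjusted p = 0.0490) were close to the threshold. They lost their calls in 6 and 10 of 20 alternatives (adjusted p up to 0.183 and 0.132). For both genes these included leaving out replicate 2 or 3 of untreated WT, replicate 1 of WT with IgM, or the second replicate of Y691F with IgM.

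HNRNPH3 was the member furthest below WT with IgM, with 108, 111 and 117 CPM in Y691F cells with IgM, against 131, 141 and 134 CPM in WT cells with IgM (log2 fold change -0.27, SE 0.038, adjusted p = 4.97e-09). HNRNPAB had 521, 547 and 530.0 CPM in Y691F cells with IgM, against 626, 623 and 622 CPM in WT cells with IgM (log2 fold change -0.23, SE 0.029, adjusted p = 1.34e-10). HNRNPC had 864, 888 and 928 CPM in Y691F cells with IgM, against 998, 1014 and 1018 CPM in WT cells with IgM (log2 fold change -0.18, SE 0.028, adjusted p = 1.05e-07). None of the Y691F libraries of these genes reached a WT library. SRSF7 had 213, 217 and 220.0 CPM in Y691F cells with IgM, against 243, 238 and 252 CPM in WT cells with IgM (log2 fold change -0.17, SE 0.031, adjusted p = 3.18e-06). HNRNPU had 1031, 1027 and 1016 CPM in Y691F cells with IgM, against 1137, 1175 and 1140.0 CPM in WT cells with IgM (log2 fold change -0.17, SE 0.028, adjusted p = 3.43e-07). The libraries of SRSF7 and HNRNPU were separated as well, and so were those of HNRNPA3, which was lower at -0.15 (SE 0.030, adjusted p = 2.15e-05). HNRNPH2, the gene with the largest IgM response, was at -0.0096 (SE 0.090, adjusted p = 0.946) and was not called.

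**Figure D5:**
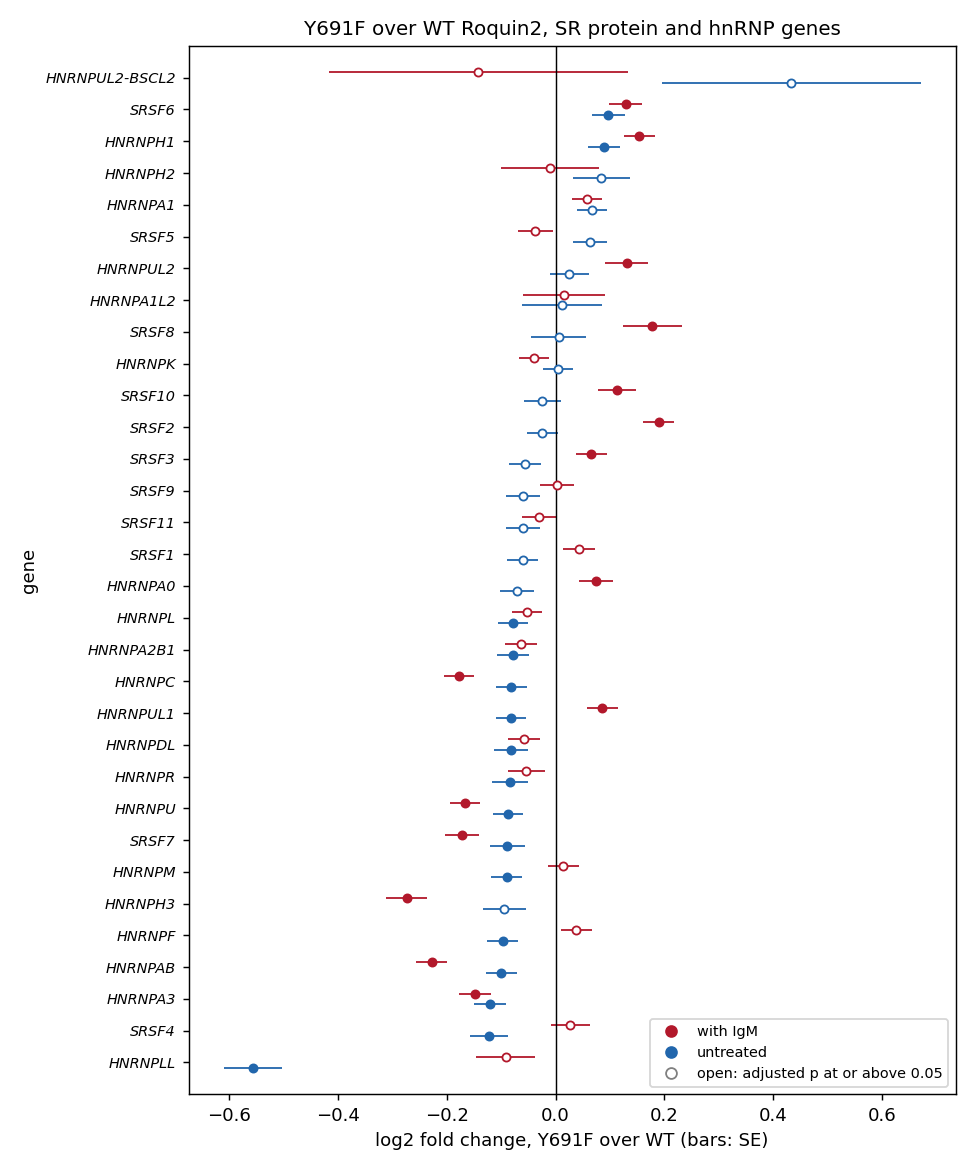
Log2 fold change of Y691F over WT (x axis; bars are SE) for each tested member (y axis) with IgM and untreated, n = 3 libraries per group, with filled points for adjusted p under 0.05. HNRNPLL untreated (-0.56) lies apart, and the other called members lie between -0.27 (HNRNPH3 with IgM) and 0.19 (SRSF2 with IgM).

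Without IgM, 2 members were higher in Y691F, 14 were lower and 16 were not called, none by 1.5-fold. In this comparison 31.2% of all tested genes were called, 15.1% higher and 16.1% lower, and 6.27% with at least 1.5-fold (4.12% higher, 2.16% lower). The median over members was -0.066, against -0.0078 for all genes. Most of these differences were a few percent in size, and the count of lower members depended on the choices made: it was 7 with library totals alone (with 4 higher), 5 without replicate 2 of untreated WT, and 6 without replicate 1 of untreated Y691F. Of all 15112 tested genes, 2045 were lower and 2587 higher with library totals alone. The read-through gene HNRNPUL2-BSCL2, with its low counts, was at 0.43 and was not called.

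Among the called members, the exception in size was HNRNPLL (ENSG00000143889, chr2:38561978-38603586, minus strand), an L-type hnRNP known for exon exclusion in PTPRC. It had 27.2, 28.5 and 26.2 CPM in untreated Y691F cells, against 40.0, 41.0 and 39.4 CPM in untreated WT cells, with no overlap between the groups. The log2 fold change was -0.56 (SE 0.053, adjusted p = 5.09e-15), or 1.47-fold lower in Y691F, and none of 20 alternatives ended this call. With IgM, HNRNPLL had 37.1, 35.8 and 34.2 CPM in Y691F cells with IgM, against 39.6, 36.4 and 38.3 CPM in WT cells with IgM, and the difference of -0.091 (SE 0.054, adjusted p = 0.176) did not pass. Relative to its paralogue HNRNPL in the same library, HNRNPLL had 5.92, 6.08 and 5.70 counts per 100 HNRNPL counts in untreated Y691F cells, against 8.01, 8.32 and 8.32 in untreated WT cells (no overlap).

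SRSF4 was lower in untreated Y691F, with 107, 108 and 108 CPM in untreated Y691F cells, against 118, 117 and 116 CPM in untreated WT cells (log2 fold change -0.12, SE 0.035, adjusted p = 0.00436) and no overlap. HNRNPA3 had 405, 421 and 434 CPM in untreated Y691F cells, against 433, 476 and 460.2 CPM in untreated WT cells. It was lower at -0.12 (SE 0.030, adjusted p = 6.66e-04), with overlap of the libraries, and kept its call in all 20 alternatives. HNRNPAB had 410.4, 432 and 399 CPM in untreated Y691F cells, against 455, 428 and 448 CPM in untreated WT cells. Its log2 fold change was -0.10 (SE 0.029, adjusted p = 0.00460), also with overlap, and its call ended without replicate 3 of untreated Y691F (adjusted p = 0.0589). HNRNPF had 408, 424 and 419 CPM in untreated Y691F cells, against 449.7, 453 and 435 CPM in untreated WT cells, without overlap. It was lower at -0.10 (SE 0.028, adjusted p = 0.00474), and its call ended without replicate 1 of untreated Y691F (adjusted p = 0.0513). The other 9 lower members, HNRNPM, SRSF7, HNRNPU, HNRNPR, HNRNPDL, HNRNPUL1, HNRNPC, HNRNPA2B1 and HNRNPL, lay between -0.090 and -0.078 on the log2 scale. Each of these 9 lost its call in 1 to 14 of 20 alternatives, and for all 9 of them without replicate 2 of untreated WT, with an adjusted p over all alternatives of up to 0.320. On the other side, SRSF6 had 209, 207 and 216 CPM in untreated Y691F cells, against 200.1, 198 and 192 CPM in untreated WT cells (log2 fold change 0.10, SE 0.031, adjusted p = 0.0102). HNRNPH1 had 470.1, 458 and 496 CPM in untreated Y691F cells, against 428, 462 and 449 CPM in untreated WT cells (log2 fold change 0.089, SE 0.029, adjusted p = 0.0129). The libraries of SRSF6 did not overlap and those of HNRNPH1 did. Both calls ended without replicate 3 of untreated Y691F, that of SRSF6 also without replicate 3 and that of HNRNPH1 without replicate 1 of untreated WT (adjusted p up to 0.0855 and 0.180).

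Between both states, 7 of 32 members (21.9%) were called in the same direction for Y691F over WT, against 15.9% of all tested genes. SRSF6 and HNRNPH1 were higher in both, and HNRNPA3, HNRNPAB, HNRNPC, HNRNPU and SRSF7 were lower in both. HNRNPUL1 was higher with IgM and lower untreated.

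The IgM response itself differed between the cell types for 12 members, by the interaction term of the same model. It was more positive in Y691F for 10 and more negative for 2, and none of these differences reached 1.5-fold. Of all tested genes 25.7% were called in this term (14.7% more positive, 11% more negative), and 6.56% with at least 1.5-fold (3.65% more positive, 2.92% more negative). Of the members, all 5 called SR genes were more positive. With library totals alone 5 members were more positive and 6 more negative, and of the SR genes 1 was more positive and 2 more negative. Of all 15112 tested genes, 1846 were then more positive and 2134 more negative.

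HNRNPLL had the largest of the called differences. That of HNRNPUL2-BSCL2, with its low counts, was -0.58 and was not called. With IgM HNRNPLL rose in Y691F by 0.39 (SE 0.056, adjusted p = 1.67e-09), whereas it was not called in WT at -0.077 (SE 0.052, adjusted p = 0.175), and the difference of the responses was 0.47 (SE 0.076, adjusted p = 6.24e-07). The level reached in Y691F with IgM, 37.1, 35.8 and 34.2 CPM, overlapped the 39.6, 36.4 and 38.3 CPM of WT with IgM. SRSF2 followed with a difference of 0.21 (SE 0.040, adjusted p = 1.17e-05), HNRNPUL1 with 0.17 (SE 0.040, adjusted p = 5.84e-04) and HNRNPA0 with 0.15 (SE 0.044, adjusted p = 0.00746), and none of 19 alternatives ended these calls. HNRNPA0 had 289.6, 294 and 277 CPM in Y691F cells with IgM, against 242, 230.2 and 232 CPM in untreated Y691F cells, and 265, 276 and 277 CPM in WT cells with IgM, against 256, 242 and 243 CPM in untreated WT cells. The 2 responses of HNRNPA0 were both positive, while those of HNRNPUL1 had opposite signs. HNRNPUL1 had 629, 619.5 and 648 CPM in Y691F cells with IgM, against 589, 616 and 571 CPM in untreated Y691F cells, and 591, 591 and 605 CPM in WT cells with IgM, against 640.1, 626 and 612 CPM in untreated WT cells. Its IgM response was 0.095 (SE 0.028, adjusted p = 0.00180) in Y691F and -0.073 (SE 0.028, adjusted p = 0.0163) in WT, and with library totals alone it was -0.075 and -0.21, so that its direction in Y691F was not settled. The WT call ended without replicate 1 of untreated WT or replicate 1 of WT with IgM (adjusted p up to 0.106).

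SRSF4 had 130.4, 123 and 129 CPM in Y691F cells with IgM, against 107, 108 and 108 CPM in untreated Y691F cells, and 124, 131 and 120.3 CPM in WT cells with IgM, against 118, 117 and 116 CPM in untreated WT cells. SRSF4, with a difference of 0.15 (SE 0.050, adjusted p = 0.0191), lost its call with library totals alone, after removal of replicate 3 of WT with IgM, and after removal of replicate 1 of Y691F with IgM (adjusted p up to 0.0819). In the other direction, the rises of HNRNPH3 and HNRNPAB were smaller in Y691F, with differences of -0.18 (SE 0.055, adjusted p = 0.00930) and -0.13 (SE 0.041, adjusted p = 0.0127). The HNRNPH3 call ended in 4 of 19 alternatives, among them leaving out replicate 1 of untreated WT, replicate 2 of WT with IgM, or the first replicate of Y691F with IgM. That of HNRNPAB ended in 3, without replicate 2 of untreated WT, replicate 2 of untreated Y691F or the first replicate of Y691F with IgM (adjusted p up to 0.0859 and 0.0840).

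Some members share sequence with other rows of the table, which could split their reads. In the annotated transcripts, HNRNPA1 shared 22.8% of its 50-base stretches with other genes, HNRNPA3 16.5%, SRSF1 50.8% (with AC015813.2) and HNRNPUL2 43.2% (with HNRNPUL2-BSCL2, which itself shared 98.8%). The rows of pseudogenes held counts equal to 19.8% of those of HNRNPA3, 14.6% of HNRNPA1 (over 75 pseudogene rows), 12.9% of HNRNPL, 12.2% of HNRNPC and 4.96% of HNRNPK. These shares moved little between groups: for HNRNPC they were 11.7% in Y691F with IgM, 12.3% in WT with IgM, 12.2% in untreated Y691F and 12.4% in untreated WT. Protein-coding genes on the opposite strand overlapped 8 tested members (HNRNPA2B1, HNRNPAB, HNRNPH3, HNRNPM, HNRNPUL1, HNRNPUL2-BSCL2, SRSF2 and SRSF9). TGFB1, which overlaps HNRNPUL1 by 6012 bases, held 11310 counts in the 3 libraries of Y691F with IgM, 10219 in WT with IgM, 4478 in untreated Y691F and 4031 in untreated WT. ELAVL1, which overlaps HNRNPM by 275 bases, held 8372 counts in Y691F with IgM, 9135 in WT with IgM, 13279 in untreated Y691F and 14255 in untreated WT. The libraries were strand-specific, but the sources used here do not say whether reads were counted by strand, and the part of these neighbours in the values of HNRNPUL1 and HNRNPM was not tested.

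The genes that act with these families were examined from lists of the same machinery, to be read against the 75.8% of all tested genes called with IgM in Y691F (37.1% higher, 38.7% lower) and the 76.9% in WT (38.4% higher, 38.5% lower). Of 8 tested SR protein kinases, 6 were higher with IgM in Y691F and 5 in WT, and none was lower. Scaled by library totals alone, 4 were higher and 1 lower in Y691F, and 5 were higher and 3 lower in WT. With that scaling, 4245 of the 15112 tested genes were higher and 7265 lower in Y691F. In WT 4642 were higher and 6776 lower. CLK1, which phosphorylates SR proteins in the nucleus, had a log2 fold change of 0.90 (SE 0.053, adjusted p = 5.71e-26) in Y691F and 1.36 (SE 0.053, adjusted p = 3.07e-37) in WT. CLK3 was at 0.83 and 0.83, and the cytoplasmic kinase SRPK1 at 0.42 and 0.43. With IgM, CLK1 averaged 57.4 ± 1.99 CPM in Y691F, against 73.6 ± 1.72 CPM in WT (log2 fold change -0.36, SE 0.048, adjusted p = 1.46e-09), and CLK3 117 ± 1.16 CPM, against 141 ± 4.08 CPM (SD, n = 3; log2 fold change -0.27, SE 0.035, adjusted p = 4.80e-10). The CLK1 response was smaller in Y691F by the interaction term (-0.46, SE 0.076, adjusted p = 1.15e-06). CLK3 was lower in untreated Y691F as well (log2 fold change -0.27, SE 0.039, adjusted p = 1.97e-08). CLK1 was not called in untreated cells (0.099, SE 0.059, adjusted p = 0.214). Of 3 nuclear import receptors of SR proteins and hnRNP A1, all were higher with IgM in both cell types.

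Among 21 SR-related proteins, 18 were higher and 2 lower with IgM in Y691F, and 16 were higher and 2 lower in WT. Of 8 hnRNP proteins under other symbols, 5 were higher and 2 lower in both cell types. Of 32 core spliceosome genes, 26 were higher and 4 lower in Y691F and 23 were higher and 6 lower in WT, with PRPF4, a U4/U6 snRNP protein, at 1.19 and 1.10. The median log2 fold change of the spliceosome list was 0.31 in Y691F and 0.25 in WT, close to the 0.27 and 0.18 of the members. Of 22 tested splicing regulators outside these groups, 13 were higher and 4 lower in Y691F and 15 were higher and 5 lower in WT, with MBNL1 at 1.06 and 0.93. Of 10 genes of nonsense-mediated decay, 4 were higher and 3 lower in Y691F, and 4 were higher and 5 lower in WT. Scaled by library totals alone, the spliceosome counts were 20 higher and 9 lower in Y691F and 18 higher and 10 lower in WT, those of the SR-related proteins 13 and 4 in Y691F and 13 and 5 in WT, and those of the other splicing regulators 8 and 9 in Y691F and 12 and 6 in WT. For the hnRNP proteins under other symbols they were 5 and 3 in both cell types, and for nonsense-mediated decay 2 and 6 in Y691F and 3 and 6 in WT. Over all 15112 tested genes they were 4245 and 7265 in Y691F and 4642 and 6776 in WT. In untreated cells the core spliceosome genes were lower in Y691F for 23 of 32 and higher for 0, with a median of -0.11, and the SR-related genes were lower for 10 of 21 and higher for 0. Over all tested genes 16.1% were lower and 15.1% higher there, with a median of -0.0078. Under library totals alone, 15 of the 32 spliceosome genes and 10 of the 21 SR-related genes were lower, as were 7 of the 32 members, in place of 14. Of all 15112 tested genes, 2045 were lower with that scaling.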

How the data were processed

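Per the file headers, the authors deposited raw counts and RPKM values of 60675 Ensembl genes in 12 libraries. Their counts were tested here, and the RPKM deposited by the authors served only to compare levels between genes. STAR 2.5.0b, DESeq2 and GRCh38 are named in the submitters' processing notes; the read counter is not named in the sources used here. Coordinates are those of the table (GRCh38, 1-based). Library preparation was strand-specific (dUTP), per the labels' protocols.

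Genes passing filterByExpr of edgeR 4.0.16 (R 4.3.3) were tested with TMM factors and the quasi-likelihood test with robust fitting over all 12 libraries, 1 coefficient per group. In each of 5 contrasts p was adjusted over 15112 genes (Benjamini-Hochberg), and a gene was called under 0.05. The SE was taken as the log2 change over the square root of F. All adjusted p are from this test. The test was checked on simulated counts in which a small share of genes changed, only in Y691F with IgM. That setting did not include a broad change such as the IgM response of these data. Alternatives were DESeq2 1.42.0 size factors and Wald test, library totals, other filters, limma-voom (limma 3.58.1), the replicate block, fewer groups and leaving out each library; the block was tried because groups share replicate numbers. P-values measure the spread between these libraries.

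The members and the gene lists were chosen with earlier results of these data known. In each contrast, up to 5 called members with the largest rise and 5 with the largest fall were to be named with full values, others by fold, and up to 4 genes of each list. MATR3 was left out, since its symbol stood on more than 1 row. Transcripts for the 50-base comparison were those of GENCODE, and promoters were matched by symbol to the RefSeq table for 34 of 37 members.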

Additional observations from a re-analysis of the deposited data

Results flagged for a closer look

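The IgM response of 12 members differed between Y691F and WT cells by the interaction term of the edgeR fit (adjusted p under 0.05 over all tested genes). The differences, given as the response in Y691F minus that in WT on the log2 scale, were 0.47 for HNRNPLL, 0.21 for SRSF2, 0.17 for HNRNPUL1, 0.15 for SRSF4, 0.15 for HNRNPA0 and 0.14 for SRSF10. They were 0.14 for HNRNPF, 0.12 for SRSF3, 0.10 for HNRNPM and 0.10 for SRSF1, and the negative ones were -0.18 for HNRNPH3 and -0.13 for HNRNPAB. The calls of HNRNPLL, SRSF2, HNRNPUL1, HNRNPA0 and HNRNPF held in all 19 alternatives. Those of SRSF1 (adjusted p = 0.0499) and HNRNPM (adjusted p = 0.0444) ended in 13 and 11 of 19 alternatives (adjusted p up to 0.222 and 0.199), and that of SRSF10 in 5 (up to 0.189). The call of SRSF3 ended in 3, without replicate 1 of untreated WT, without replicate 1 of untreated Y691F and with library totals alone (up to 0.0953).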

How the results depend on the processing

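Of the values of the tested members under the alternatives, 1821 of those called in the main analysis kept their direction and call, and 163 were no longer called. Of those not called, 48 became called, 2 of them with the other sign, and 7 called values changed sign, 3 of which stayed past the threshold. All sign changes of values called in the main analysis or under the alternative came with library totals alone, which moved the median of all genes by -0.17 and -0.13 in the IgM comparisons. They gave, for IgM over untreated in Y691F, -0.10 (HNRNPA3), -0.012 (HNRNPK), -0.033 (HNRNPM), -0.075 (HNRNPUL1) and -0.12 (SRSF5). In WT they gave -0.037 (HNRNPA3), -0.060 (HNRNPF), -0.10 (HNRNPM) and -0.039 (SRSF4). RC3H2, which is not a member and not in these counts, was at -0.0051 in WT. The counts of called members that moved by over 1.5 times were these. For Y691F over WT untreated (2 higher, 14 lower), there were 4 higher and 7 lower with library totals, 4 and 7 with a filter of 5 CPM in 3 libraries, and 7 lower with only the groups of the comparison; leaving out 1 library gave 0 to 3 higher and 5 to 14 lower. For IgM in Y691F (6 lower), library totals gave 10. For the difference of responses (10 more positive, 2 more negative), library totals gave 5 and 6, the 5 CPM filter 4 more negative, the DESeq2 Wald test 1, and leaving out 1 library 7 to 9 and 0 to 3. The causes of these moves were not tested.

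Same-numbered replicates did not deviate together (correlations -0.018 to 0.041). The variance between replicates was 1.43 to 2.41 times the counting variance, so counting noise makes up part of these deviations. The correlations alone do not tell whether the numbers pair the samples. With the replicate block the counts were 8 higher and 6 lower for Y691F over WT with IgM, 2 and 15 untreated, 21 and 7 for IgM in WT, 23 and 5 for IgM in Y691F, and 9 and 2 for the difference of responses. Differences of a few percent rest on the small spread between libraries; HNRNPUL2-BSCL2 is limited by its low counts.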

Other observations

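With IgM, the splicing regulators CELF2, MBNL2 and PTBP2, outside both families, differed more between Y691F and WT than any tested member. CELF2, a CUG-binding regulator active in lymphocytes, averaged 6.27 ± 0.520 CPM in Y691F cells with IgM, against 2.48 ± 0.189 CPM in WT cells with IgM (log2 fold change 1.34, SE 0.15, adjusted p = 1.80e-12, edgeR). In untreated cells it averaged 4.98 ± 0.640 CPM in Y691F, against 0.880 ± 0.0682 CPM in WT (log2 fold change 2.48, SE 0.19, adjusted p = 3.27e-20). MBNL2 averaged 16.02 ± 0.832 CPM in Y691F with IgM, against 8.70 ± 0.195 CPM in WT with IgM (log2 fold change 0.88, SE 0.087, adjusted p = 1.45e-14). PTBP2, the paralogue of PTBP1 best known in neurons, was lower, with 6.92 ± 0.941 CPM in Y691F with IgM, against 11.2 ± 0.736 CPM in WT with IgM (log2 fold change -0.69, SE 0.10, adjusted p = 3.39e-08). In untreated cells MBNL2 averaged 24.4 ± 0.879 CPM in Y691F, against 19.04 ± 1.18 CPM in WT (log2 fold change 0.35, SE 0.065, adjusted p = 7.10e-06), less than the difference of HNRNPLL. Untreated PTBP2 was at 7.76 ± 0.727 CPM in Y691F, against 7.68 ± 0.771 CPM in WT (log2 fold change 0.017, SE 0.10, adjusted p = 0.931), and was not called. All means are ± SD with n = 3 libraries. Y691F and WT libraries did not overlap for these genes with IgM, and the levels were low.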
